A study of Caenorhabditis elegans with 2 samples.

Results

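The autosomal intergenic peaks of C17E4.6 were the places on chromosomes I to V where the tagged protein was mapped away from coding genes. The members were taken from the combined list of peaks, which the authors made from both replicates and cut by the irreproducible discovery rate. A peak was a member when its summit lay outside every protein-coding gene body and also outside every coding promoter, taken as the 500 bp before a 5′ end and the 200 bp after it. By this rule 234 of the 925 autosomal peaks were members (25.3%, 95% Wilson interval 22.6 to 28.2), out of 1017 peaks on all chromosomes. The other autosomal peaks comprised 434 with a summit at a coding promoter and 257 with a summit in a coding gene body outside promoters. A further 53 intergenic peaks on the X chromosome were not members. The word intergenic refers here to coding genes, so a summit could lie inside a noncoding gene or a pseudogene. The whole called interval, and not just the summit, lay outside coding genes and promoter windows for 163 members.

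The assay was chromatin immunoprecipitation followed by sequencing in whole Caenorhabditis elegans young adults, collected 62 hours after starved first-stage larvae were fed. The worms were of strain RW12293, in which a TY1::EGFP::3xFLAG tag had been inserted into C17E4.6 with CRISPR, and an anti-GFP antibody was used. There was 1 group of 2 biological replicates, of 1 tagged strain, and no untagged or control immunoprecipitation was analysed here. Whole animals were pooled, so a strong site in few cells and a weak site in many cells cannot be told apart.

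C17E4.6 encodes a protein of the VPS72 (YL1) family, whose yeast and animal relatives are subunits of complexes that exchange the histone variant H2A.Z into nucleosomes. Worm intergenic DNA holds many short noncoding genes. Genes for tRNAs are read by RNA polymerase III from promoter elements inside the gene, the A box and the B box, and the SL2 RNAs made from the sls-2 genes supply the leader that is spliced onto the downstream messages of operons. Small nucleolar RNAs (snoRNAs) guide the modification of ribosomal RNA, and small nuclear RNAs (snRNAs) build the spliceosome.

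Several recurring kinds of sequence lay under members, and examples are given here from the RefSeq sequence of assembly WBcel235 (ce11). The first set comes from the strongest member of all and from near-identical sequence at other members. It is shown because the same stretch recurred under separate peaks. Capitals mark the longest unbroken run, of 38 bases, that the windows of the 4 members of this group share.
C46C2.7 site, chrIV:9196366-9196516, plus strand: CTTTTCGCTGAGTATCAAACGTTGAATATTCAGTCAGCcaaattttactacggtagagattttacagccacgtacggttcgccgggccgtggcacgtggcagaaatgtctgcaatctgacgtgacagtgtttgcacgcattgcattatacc
K07D4.2 site, chrII:4047966-4048116, minus strand: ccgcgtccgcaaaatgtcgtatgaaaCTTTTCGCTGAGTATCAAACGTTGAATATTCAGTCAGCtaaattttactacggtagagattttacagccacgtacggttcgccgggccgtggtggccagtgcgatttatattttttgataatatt
zip-11 site, chrIV:3313423-3313573, plus strand: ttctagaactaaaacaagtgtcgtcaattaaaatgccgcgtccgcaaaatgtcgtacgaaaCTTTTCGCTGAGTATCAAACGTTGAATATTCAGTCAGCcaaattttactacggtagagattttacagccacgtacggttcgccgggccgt
The next windows lie at SL2 RNA genes, on the plus strand. Capitals mark a run of 52 bases shared by both, of which 17 lie before the annotated 5′ end of the sls-2 gene and 35 within it.
sls-2.1 site, chrII:5844749-5844899, plus strand: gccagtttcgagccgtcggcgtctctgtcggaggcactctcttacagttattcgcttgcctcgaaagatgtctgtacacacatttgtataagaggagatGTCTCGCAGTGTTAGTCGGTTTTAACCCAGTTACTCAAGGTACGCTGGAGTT
sls-2.2 site, chrII:5543504-5543654, plus strand: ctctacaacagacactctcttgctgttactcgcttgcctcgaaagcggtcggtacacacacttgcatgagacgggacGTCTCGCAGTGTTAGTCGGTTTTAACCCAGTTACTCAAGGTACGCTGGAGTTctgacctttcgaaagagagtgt
The third set comes from a tandem repeat. Capitals mark matches to TTCNNGAA, an inverted repeat known as the core of the heat shock element.
srv-14 site, chrIV:15896002-15896152, plus strand: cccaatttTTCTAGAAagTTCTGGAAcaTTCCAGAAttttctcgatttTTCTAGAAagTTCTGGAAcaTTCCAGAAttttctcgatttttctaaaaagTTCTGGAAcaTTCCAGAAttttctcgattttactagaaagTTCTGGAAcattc
nhr-247 site, chrV:15320894-15321044, plus strand: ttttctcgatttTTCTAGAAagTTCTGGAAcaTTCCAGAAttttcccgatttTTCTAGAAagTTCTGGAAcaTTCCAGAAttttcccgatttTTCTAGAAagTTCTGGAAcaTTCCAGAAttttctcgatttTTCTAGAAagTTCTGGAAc
The fourth pair shares 85 bases, in capitals, between members on different chromosomes.
vps-39 site, chrV:14038819-14038969, plus strand: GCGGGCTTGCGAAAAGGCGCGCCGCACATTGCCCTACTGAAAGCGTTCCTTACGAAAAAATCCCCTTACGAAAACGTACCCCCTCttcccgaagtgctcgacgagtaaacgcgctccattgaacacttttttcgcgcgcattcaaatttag
chromosome II site, chrII:5346498-5346648, minus strand: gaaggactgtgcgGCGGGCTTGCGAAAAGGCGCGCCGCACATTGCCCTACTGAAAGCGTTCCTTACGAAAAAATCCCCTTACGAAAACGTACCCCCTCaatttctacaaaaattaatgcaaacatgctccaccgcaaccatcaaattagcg
The last windows lie at RNA genes, on the plus strand, with B box matches (GTTCGANNC or GTTCAANNC) in capitals. In the first the match lies inside a tRNA gene, WBGene00014365, and in the other two it lies upstream of a snoRNA gene.
WBGene00014365 site, chrII:9566205-9566305, plus strand: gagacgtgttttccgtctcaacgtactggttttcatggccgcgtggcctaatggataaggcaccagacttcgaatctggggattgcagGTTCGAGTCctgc
W03C9.9 site, chrII:11960804-11960904, plus strand: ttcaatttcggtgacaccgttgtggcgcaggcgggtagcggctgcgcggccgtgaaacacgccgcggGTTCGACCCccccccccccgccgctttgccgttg
F32E10.10 site, chrIV:7574023-7574123, plus strand: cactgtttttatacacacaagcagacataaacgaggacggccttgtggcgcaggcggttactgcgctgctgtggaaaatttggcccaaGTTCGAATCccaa

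Members had a median signal between those of promoter and gene body peaks. Signal, the value that the authors' peak caller gave each peak on a scale that is not stated, had a median of 80.6 over the 234 members (quartiles 66.2 and 107, range 2.46 to 379). The median was 87.1 over promoter peaks and 72.7 over gene body peaks. Among the 100 strongest peaks of all chromosomes were 25 members (10.7% of members), against 57 promoter peaks (13.1% of promoter peaks) and 12 gene body peaks (4.67% of gene body peaks). Members had a median GC content of 47.4% in the 75 bp either side of the summit, against 45.0% at promoter summits and 45.7% at gene body summits.

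**Figure D1:**
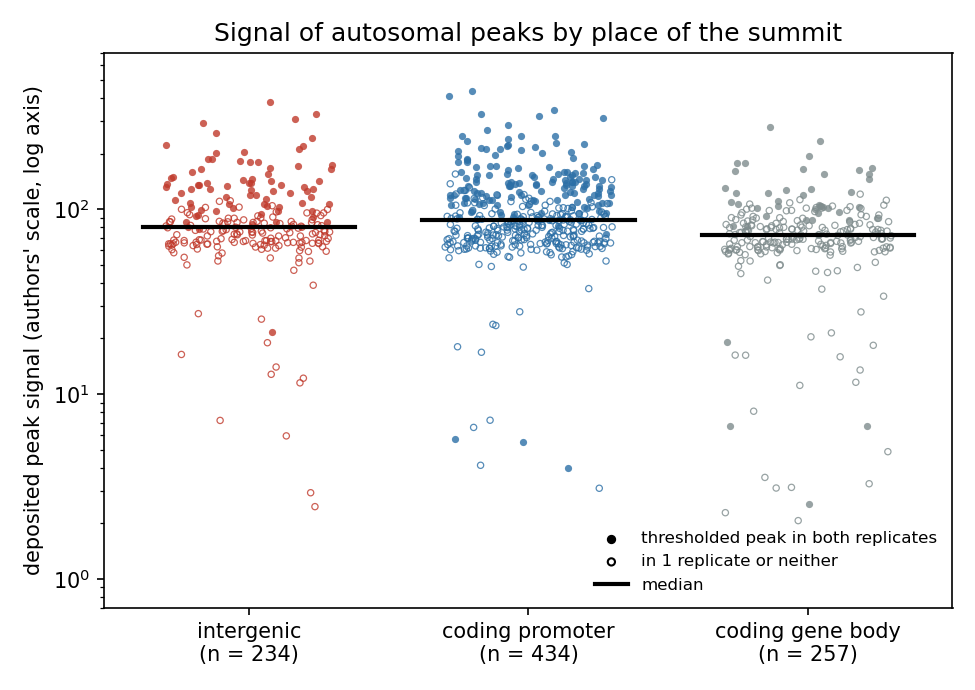
Each point is 1 autosomal peak of the combined list, placed by the location of its summit, with the deposited signal on a log axis. The black bars are medians, 80.6 for the 234 intergenic peaks, 87.1 for promoter peaks and 72.7 for gene body peaks, and filled points overlap a thresholded peak in both replicates.

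Of the members, 77 overlapped a thresholded peak in each replicate by at least 1 bp (32.9%, Wilson interval 27.2 to 39.2), where 28.7% of all 1017 peaks did. The shares at the other autosomal peaks were 34.3% for promoters and 17.1% for gene bodies. A peak in replicate 1 alone was found at 55 members (23.5%) and at 24.3% of the other autosomal peaks. A peak in replicate 2 alone was found at 17 members (7.26%) and at 83 (12.01%) of the other autosomal peaks. Neither replicate had a thresholded peak at 85 members (36.3%, interval 30.4 to 42.7), against 36.1% of all peaks. The intervals of the shares in both replicates and in neither included those of the list as a whole. Across the 205 members with a ranked summit within 100 bp in both replicates, Spearman's rho of the signal was 0.52. This describes peaks that come from the same 2 libraries, and the choice of a reproducible list favours agreement. The median log2 ratio of replicate 2 to replicate 1 signal was -0.35 (SD 0.59 across peaks), and 152 of the 205 were higher in replicate 1. The other autosomal peaks had like values, with a rho of 0.51, a median ratio of -0.33 and 467 of 626 higher in replicate 1. Whether the signal scales of the lists are comparable is not stated.

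**Figure D2:**
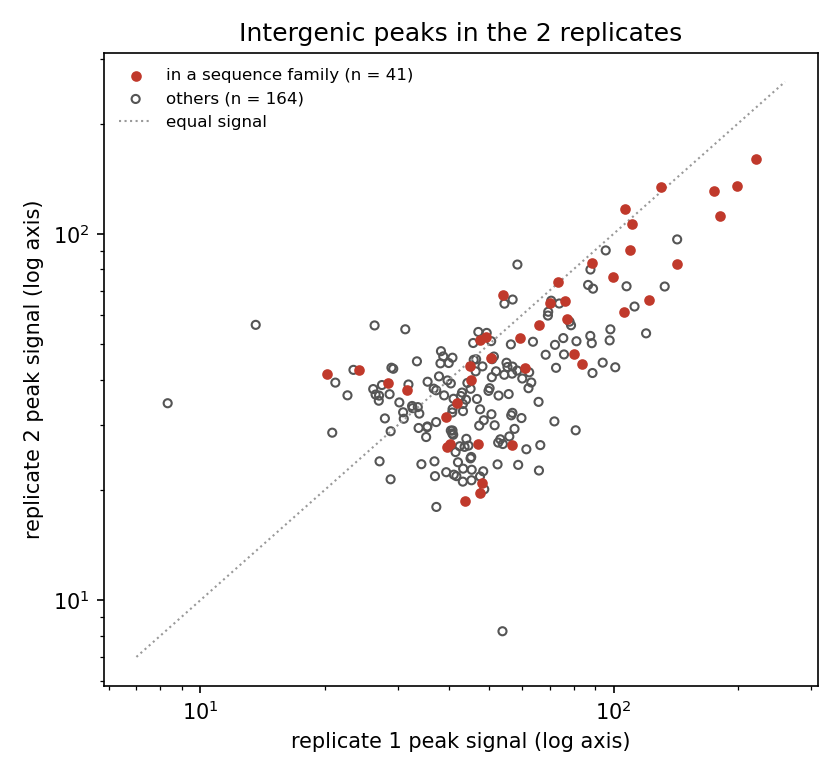
Each point is 1 of the 205 intergenic peaks with a ranked summit in both replicates, with the signal in replicate 1 across and in replicate 2 up, both on log axes. Red points are the 41 members of a sequence family, and 152 points lie below the dotted line of equal signal.

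The sites with the largest differences in matched signal between replicates had combined signals of 65.4 to 111. The summit 1578 bp past the 5′ end of car-1, an RNA-binding protein gene, had signals of 53.8 in replicate 1 and 8.23 in replicate 2 (log2 ratio -2.71). The summit 1163 bp upstream of pisy-1, which encodes phosphatidylinositol synthase, had 66.0 and 22.6 (-1.55). The summit 4815 bp upstream of cmd-1, the calmodulin gene, had 80.9 and 29.1 (-1.48), and it lay inside the long noncoding gene linc-128. In the other direction, the summit 28 bp from the body of the histone gene his-59 had 13.6 in replicate 1 and 56.4 in replicate 2 (2.05). The summit 1707 bp upstream of F36H12.5 had 8.33 and 34.5 (2.05). At both of these a thresholded peak of replicate 1 overlapped the member. The matched signal was that of the nearest ranked summit, which need not be the signal of the overlapping peak. No thresholded peak of replicate 2 overlapped the member at F36H12.5. The summit 532 bp upstream of rod-1, whose product acts at kinetochores, had 26.4 and 56.2 (1.09).

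Genes for tRNAs, snoRNAs and snRNAs stood beside 46 members, or 19.7% (interval 15.1 to 25.2), where they stood within the same 500 bp of 0.937% of the intergenic autosomal bases. The 23304659 intergenic autosomal bases that meet the rule served as this background. A snoRNA gene was within 500 bp of 22 members (9.40%, against 0.362% of bases) and a tRNA gene of 17 (7.26%, against 0.393%). An snRNA gene was near 9 members (3.85%, against 0.192%). Members near any of these had a median signal of 90.3 and 21 of the 46 (45.7%, interval 32.2 to 59.8) were in both replicates. The other 188 members had a median of 77.9, and 56 (29.8%, interval 23.7 to 36.7) were in both. The 9 members near an snRNA gene had the highest share in both replicates of these classes, 7 of 9, against 12 of 22 near snoRNA genes and 4 of 17 near tRNA genes.

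The remaining noncoding classes varied. Unclassified ncRNA genes were within 500 bp of 52 members (22.2%, against 7.60% of bases). Many of these members were also near a tRNA, snoRNA or snRNA gene, so this share partly repeats the one above. Long intergenic or antisense RNA genes were near 8 members (3.42%, against 1.28%), and none of these 8 was in both replicates. They included 2 summits at linc-128 and 2 at linc-109, and the share per gene was not tested. MicroRNA genes were near 3 members (1.28%, against 0.342%), of which 2 were summits 206 bp apart at the same gene. A count of 2 of 234 has an interval of 0.235 to 3.06, which includes the share of bases. Genes for piRNAs, which guide silencing in the germ line and crowd parts of chromosome IV, were near 7 members (2.99%, against 9.73%), and 0.855% of members had one within 200 bp, against 7.24% of bases. Pseudogenes were near 27 members (11.5%, against 16.0%), and 6.41% of members had one within 200 bp, against 13.5% of bases. No member lay within 500 bp of an rRNA gene, where 0.113% of bases do, and a count of 0 of 234 allows a share of up to 1.28%. In all, 111 members (47.4%, interval 41.1 to 53.8) had a noncoding gene or pseudogene within 500 bp, against 33.4% of bases.

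**Figure D3:**
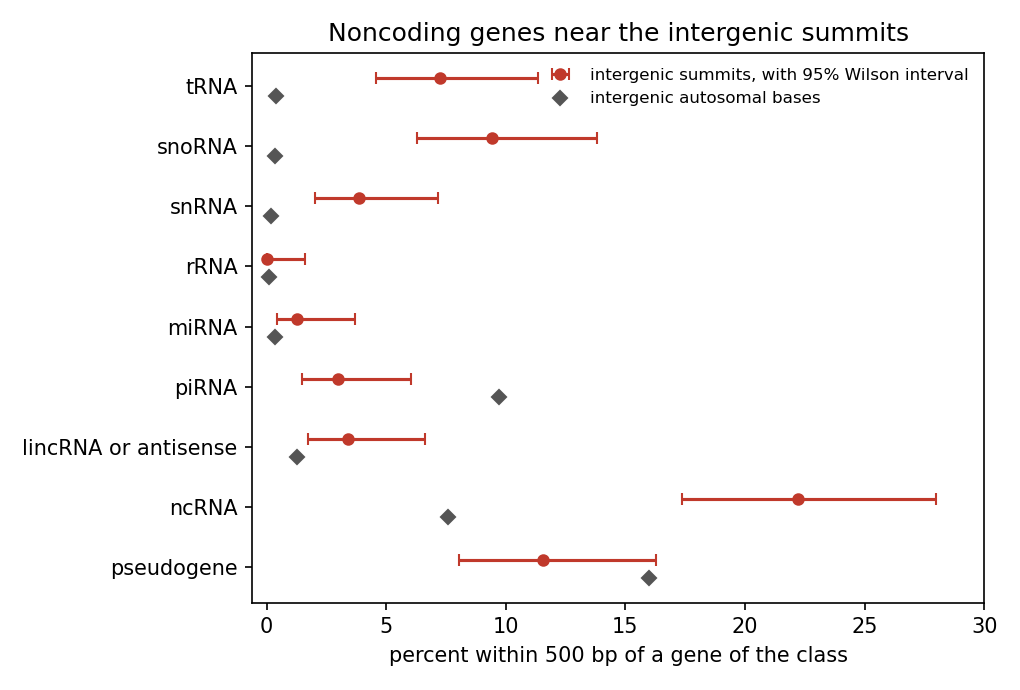
Percent of the 234 intergenic summits (red, with 95% Wilson intervals) and of the intergenic autosomal bases (grey diamonds) within 500 bp of a gene of each class. The red intervals for tRNA, snoRNA, snRNA, miRNA, lincRNA or antisense and ncRNA lie above the diamonds, the piRNA interval lies below, and that for pseudogenes includes its diamond. Summits that share a gene were counted separately, which weighs most on the small miRNA and lincRNA or antisense counts.

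Beside snoRNA and snRNA genes most summits stood just upstream of the 5′ end, and beside tRNA genes they lay on both sides of it. Of the 22 members near a snoRNA gene, 15 had the summit upstream and 14 of these were within 100 bp, with a median position of -29 bp. Of the 9 near an snRNA gene, 7 were upstream, each within 100 bp, with a median of -19 bp. Of the 17 near a tRNA gene, 10 were upstream, 7 of them within 100 bp, and 5 were inside the gene, with a median of -15 bp (range -436 to 441).

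**Figure D4:**
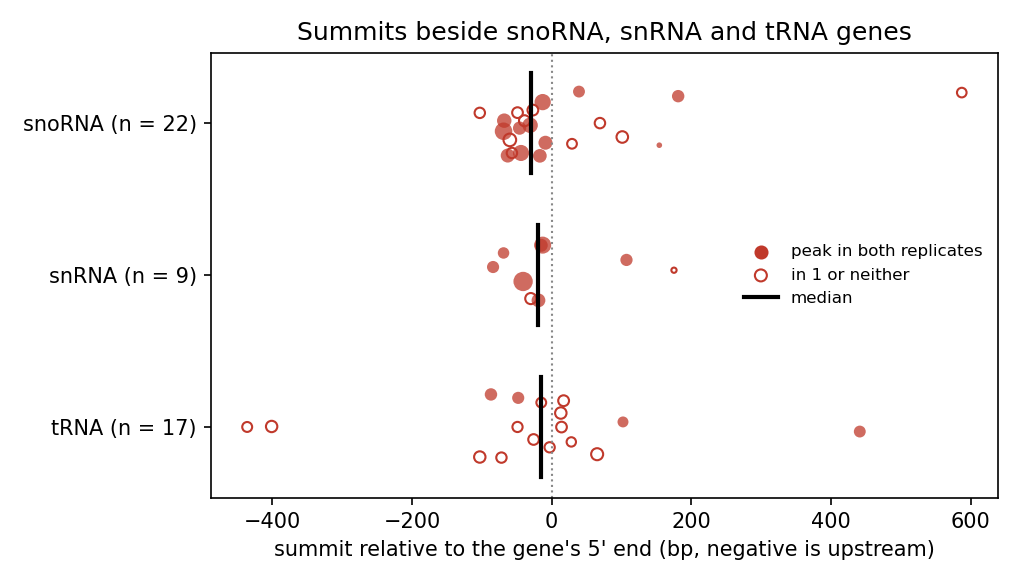
Position of the summit relative to the annotated 5′ end of the nearest gene of each class, in bp along the gene's strand, for members within 500 bp of a snoRNA, snRNA or tRNA gene. Point area follows the deposited signal, filled points are peaks in both replicates, and the medians (black bars) are -29, -19 and -15 bp.

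The snRNA group was led by SL2 RNA genes. The summit 41 bp upstream of sls-2.1, at position 5844824 of chromosome II, had a combined signal of 258 and signals of 130 and 134 in replicates 1 and 2. The summit 13 bp upstream of sls-2.4, at 4172193 of chromosome I, had a signal of 201, with 109 and 90.2 in the replicates. The summit 19 bp upstream of sls-2.2, at 5543579 of chromosome II, had a signal of 131, with 77.2 and 58.5. These 3 windows matched each other at 81.6% to 90.8% identity and were in both replicates. Weaker members stood 84 bp upstream of sls-2.9 (signal 102) and 30 bp upstream of sls-2.12 (signal 85.5). The summit by sls-2.9 also lay 48 bp upstream of the tRNA gene WBGene00014446 and was counted in both groups. The fourth strongest of the class lay 15 bp upstream of F54D8.7 on chromosome III, with a signal of 116.

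The strongest of the snoRNA group lay 69 bp upstream of F59C6.15 at 10517219 of chromosome I, with a signal of 213 and replicate signals of 106 and 117. T26A8.6 had a summit 13 bp upstream with a signal of 183 (112 and 63.3 in replicates 1 and 2). W03C9.9 had one 44 bp upstream with a signal of 179 (95.7 and 90.1), and Y67A10A.14 had one 31 bp upstream with a signal of 165 (88.5 and 83.4). F59C6.15, Y67A10A.14 and F25H2.15 (signal 122) lie on chromosomes I and IV, and the windows at these 3 genes matched each other at 90% identity or more. The summits at these 5 snoRNA genes were in both replicates.

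Summits at tRNA genes had a median signal of 80.9 and a maximum of 107, against medians of 102 at snoRNA genes and 103 at snRNA genes. The maximum was at 3439377 of chromosome II, between neighbouring tRNA genes, 87 bp upstream of WBGene00022931, with replicate signals of 56.4 and 49.9. The next were 48 bp upstream of WBGene00014446 (signal 102, the summit by sls-2.9 described above) and 65 bp into WBGene00023135 (signal 99.9). The fourth, with a signal of 97.7, lay 441 bp past the 5′ end of WBGene00022935, and it was also 39 bp into the snoRNA gene C16D9.10. Replicate 1 had signals from 20.3 to 66.5 at the 17 tRNA sites and replicate 2 from 22.4 to 49.9, so the ranges of the replicates overlapped.

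The B box had a different place in tRNA and snoRNA genes. It matched in 33 of the 234 member windows, which took 75 bp either side of the summit (14.1%, interval 10.2 to 19.1), on either strand. Of these 33 members, 7 were in both replicates, against 77 of all 234. Windows centred 500 bp to either side matched in 2.78%. Promoter summits matched in 6.22% and gene body summits in 16.7%. It was present at 10 of the 17 members near tRNA genes, each time inside the gene on its strand, 51 to 61 bp from the 5′ end. It was present at 6 of the 22 members near snoRNA genes, each time on its strand and starting 8 to 27 bp upstream of its 5′ end. At F32E10.10 (signal 79.4), whose window is printed above, the match started 11 bp upstream. This member had a thresholded peak in neither replicate and no matched ranked summit in replicate 1. At W03C9.9, where the peak was in both replicates, the match started 27 bp upstream. No match was found at the 9 members near snRNA genes, and 17 of the 188 members away from these genes had one (9.04%).

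Among the other members near noncoding genes, the strongest by a microRNA gene lay 353 bp past the 5′ end of cel-mir-45 on chromosome II, with a signal of 107 and replicate signals of 54.4 and 64.5. Both remaining microRNA sites were at cel-mir-51 on chromosome IV, 18 bp and 224 bp upstream, with signals of 75.9 and 14.01. The strongest sites near long noncoding genes were 550 bp into linc-128 (signal 111), 642 bp into K07C10.8 (92.4), 2012 bp into linc-128 (74.97) and beyond the 3′ end of M04F3.7 (72.6). The 7 members near piRNA genes were on chromosome IV, led by signals of 220, 165, 138 and 103 near 21ur-15381, 21ur-7591, 21ur-11151 and 21ur-15698. The strongest sites near unclassified ncRNA genes were those at C46C2.12 (signal 379), WBGene00195021 (293), F59C6.19 (213) and R10E11.12 (203). Near pseudogenes the strongest were 61 bp upstream of WBGene00023323 (307) and at its other end (293), then at WBGene00023318 (221) and WBGene00235385 (180).

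The 20 members of highest signal, from 166 to 379, were in both replicates in every case. So was every autosomal promoter and gene body peak with a signal of 166 or more, so this was not particular to members. The strongest autosomal peak that was not in both was a promoter peak with a signal of 155. Of these 20, 5 were among the 15 strongest peaks of the whole list, 14 stood near a noncoding gene or pseudogene, and 8 had a summit over 500 and up to 1000 bp upstream of the nearest coding 5′ end. The strongest, of rank 3 in the whole list, had its summit at 9196441 of chromosome IV, 365 bp from the body of C46C2.7, with a signal of 379 and replicate signals of 221 and 160. The second lay 674 bp upstream of rpa-2, which encodes a subunit of replication protein A, with a signal of 327 (199 in replicate 1 and 135 in replicate 2). The third and the fourth stood 2417 bp apart near K08F11.1 on chromosome IV, at either end of the pseudogene WBGene00023323, with signals of 307 (175 and 131) and 293 (181 and 112).

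The strong members upstream of coding genes included sites at 2 centromere genes. The summit 665 bp upstream of hcp-3, the worm CENP-A gene, had a signal of 242, with 143 and 96.5 in replicates 1 and 2. The summit 702 bp upstream of hcp-4, the CENP-C gene, had 174, with 87.9 and 79.9. The summit 880 bp upstream of cbp-1, which encodes a p300/CBP acetyltransferase, had 203, with 133 and 71.8. R06C1.4 had a summit 597 bp upstream with a signal of 188, and vps-39, a gene of the lysosomal tethering complex, had one 516 bp upstream with a signal of 171. The remaining members of the 20 included a summit 1199 bp upstream of imb-3, an importin gene (signal 180), 2545 bp upstream of K07D4.2 (221) and 1844 bp upstream of srv-14, a chemoreceptor gene (220). They also included summits 426 bp from F40E3.3 (186), 309 bp from the bZIP gene zip-11 (167) and 2556 bp upstream of Y116A8A.150 (166). The others were the SL2 and snoRNA sites described above, at sls-2.1, sls-2.4, F59C6.15, T26A8.6 and W03C9.9.

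Sequence that recurs in the genome underlay many of these peaks. A member had another copy when this window matched elsewhere in the assembly at 90% identity over at least 80% of its length. This held for 49 members (20.9%, interval 16.2 to 26.6), against 24 of 434 promoter peaks (5.53%, interval 3.74 to 8.10) and 34 of 257 gene body peaks (13.2%, interval 9.62 to 17.9). Over all autosomal peaks the share was 11.6%. At 9 members the window had 100 or more copies. Reads from near-identical copies can be placed at the wrong copy, and the sources used here do not say how such reads were treated. Near tRNA, snoRNA or snRNA genes 8 of 46 members had a copy, against 41 of the other 188. By class it was 1 of 17 near tRNA genes, 4 of 22 near snoRNA genes and 3 of 9 near snRNA genes. A tRNA gene alone is too short to meet the copy rule. The comparison therefore cannot show whether members near tRNA genes are less repeated.

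Members that matched one another at 80% identity or more over at least 50% of the window were gathered into families. There were 16 families with 44 members, 18.8% of all (interval 14.3 to 24.3), and 12 of the 20 strongest members were in one. Members in a family had a median signal of 111 and 27 of 44 (61.4%) were in both replicates. Members outside had a median of 78.6 and 50 of 190 (26.3%) were in both. The families were defined after the peaks had been seen, and no test was applied to these values.

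The family of the strongest member held 4 members, and the windows of the 3 strongest are printed above. Their signals were 379 near C46C2.7, 221 upstream of K07D4.2, 167 near zip-11 and 138 near 21ur-11151, and all were in both replicates. They matched each other at 96.7% to 98.7% identity. The sequence occurred at 10 loci, none on X, and 6 of these held a peak of the combined list. One of these 6 was the member upstream of Y116A8A.150, with its summit just outside the aligned stretch, and another lay in a gene body (signal 123). A locus on chromosome V that matched at 100% over 91 bp held no peak in the ranked list at all. Not every identical stretch had a called peak. Because the placing of reads from such copies is not stated, a missing peak cannot show that a copy was unbound.

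In the families of the second and the third strongest members, too, part of the loci held peaks. That of the rpa-2 site (327) also held the 293 site by K08F11.1 and a weaker site with a signal of 61.6 on chromosome IV, and 3 of its 8 loci held a combined peak. That of the 307 site by K08F11.1 held members of 186 near F40E3.3 and 113 at 4720717 of chromosome IV, and 4 of its 8 loci held a combined peak. The family of the vps-39 site held 1 other member, with a signal of 128, on chromosome II. It had 25 loci, of which 11 held a combined peak, most of them classed as coding promoters. The strongest of those promoter peaks had signals of 269 and 239, both on chromosome II.

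A tandem repeat formed the largest family, with 5 members. Their signals were 220 on chromosome IV upstream of srv-14, 149 on chromosome IV, 120 on chromosome I, and 72.8 and 16.4 from a pair of summits 200 bp apart on chromosome V. The repeat was found at 252 loci, 34 of them on X, of which 7 held a combined peak. The spelling TTCNNGAA, chosen after the sequences had been seen, matched 7 to 11 times in each of these windows. Across the list, 3 or more matches were found at these 5 members (2.14%), at 1 promoter peak (0.230%) and at 1 gene body peak (0.389%), and in 0.214% of the windows 500 bp from members. A single match or more was no more frequent at members (11.1%) than in the windows beside them (12.4%). A family of 4 members on chromosome V had signals of 61.6 to 128. The summits of highest signal there were 128 and 97.7, and 8 of the 19 loci held a combined peak.

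Other motifs gave a mixed picture. The E2F spellings TTGGCGC and TTCGCGC, known from cell cycle promoters, matched at 23 members (9.83%, interval 6.64 to 14.3) and in 2.56% of the windows beside them, against 20.7% of promoter summits (interval 17.2 to 24.8) and 4.28% of gene body summits. Near RNA genes 1 of 46 members matched, against 22 of the other 188. The spelling CTGCGTCT, credited to the zinc finger protein EOR-1, matched at 22 members (9.40%) and in 0.641% of the windows beside them, against 8.53% of promoter summits and 5.06% of gene body summits. The run GAGAGA was in 24.4% of member windows and 11.1% of those beside them. TTTTTTTT was in 5.56% of member windows and 16.2% of those beside them. CACGTG was in 4.27% against 2.99%, and AGATAA in 4.27% against 9.19%. CTGTTTCA, the Ruby motif of piRNA genes, was at 0 of 234 members, in 0.427% of the windows beside them, at 0 of 434 promoter summits and at 0.389% of gene body summits. Each spelling was searched on both strands, none is contained in another, and a match is a description of the letters and not of a bound site.

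**Figure D5:**
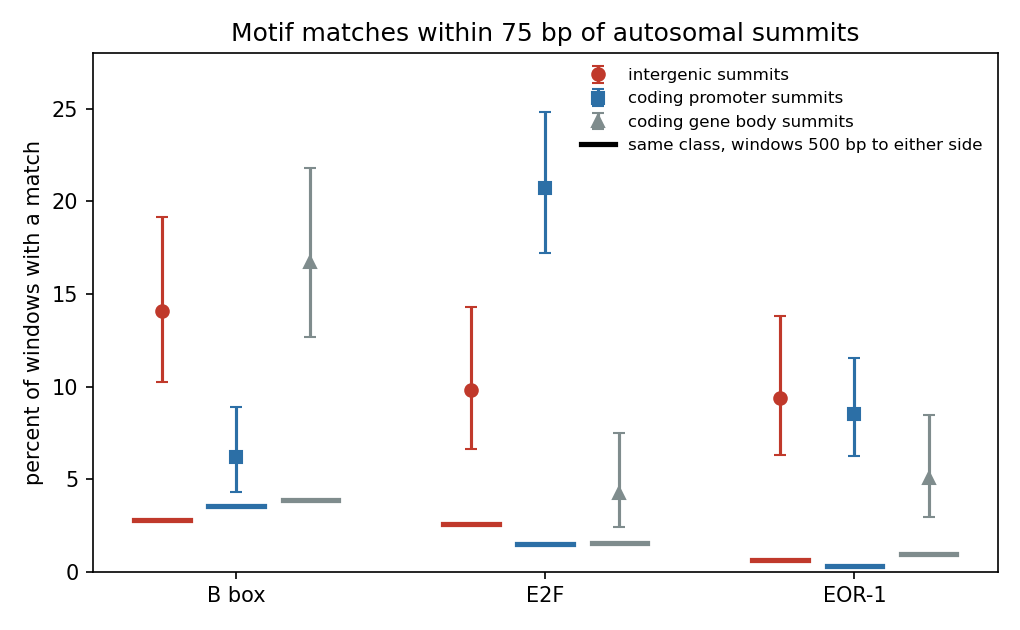
Percent of windows within 75 bp of a summit that held a motif, for intergenic, promoter and gene body summits of the autosomes, with 95% Wilson intervals, and short bars for windows 500 bp to either side of the same summits. Intergenic summits had 14.1% for the B box, 9.83% for E2F and 9.40% for EOR-1.

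In the median, members lay nearer to coding genes than the intergenic bases did. The median distance from summit to the nearest coding 5′ end was 1524.5 bp, against 2245 bp for the intergenic autosomal bases. The gap between coding genes that held the summit had a median of 3101.5 bp, against 6362 bp. The nearest coding 5′ end was over 500 and up to 1000 bp downstream of 56 summits (23.9%, interval 18.9 to 29.8, against 16.4% of bases). These 56 had a median signal of 90.04 and 25 were in both replicates. Members upstream of a gene by more than 1000 bp numbered 82, with a median signal of 79.2. Of these, 32 were within 2000 bp (13.7%, interval 9.86 to 18.7, against 20.01% of bases) and 50 were farther (21.4%, interval 16.6 to 27.1, against 34.4%). The summit lay past the 3′ end of the gene with the nearest 5′ end for 96 members, with a median signal of 77.9. Of these, 55 were within 2000 bp of that 5′ end (23.5%, interval 18.5 to 29.3, against 8.51% of bases) and 41 were farther (17.5%, interval 13.2 to 22.9, against 20.7%).

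The orientation of the flanking coding genes differed from that of the bases. Convergent genes flanked 55 members (23.5%, interval 18.5 to 29.3), against 14.8% of bases. Divergent genes flanked 53 (22.6%, interval 17.8 to 28.4), against 30.8%, and genes in tandem flanked 125 (53.4%, interval 47.0 to 59.7), against 54.2%. A single member, 17 bp upstream of the snoRNA gene Y74C9A.6 near the left end of chromosome I, lay beyond the last coding gene, with a signal of 129. Members between divergent genes had the highest median signal (86.0, against 78.4 for tandem and 77.6 for convergent gaps).

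Some members were remote. The farthest from a coding gene body was 8061 bp from Y23H5B.5 on chromosome I, with a signal of 135, and it stood 9 bp upstream of the snoRNA gene Y23H5B.10. The next was 6299 bp from nspa-10 on chromosome V, with a signal of 85.1. A site 6226 bp from F35H8.4 on chromosome II had a signal of 79.0, and it lay 14 bp into the tRNA gene WBGene00014365 printed above. A site 6124 bp from K07H8.7 on chromosome IV had a signal of 79.9 and stood 27 bp upstream of the snoRNA gene H09I01.2. A tRNA or snoRNA gene stood beside 3 of the 4 most remote members, where 19.7% of all members had a tRNA, snoRNA or snRNA gene within 500 bp. These 4 are too few to describe remote members in general.

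At the limit of the promoter window the members and the promoter peaks had overlapping signals. The members nearest to the limit were 512 bp upstream of Y62F5A.12 (signal 94.4), 514 bp upstream of maph-1.2 (108) and 516 bp upstream of vps-39 (171). The promoter peaks nearest to it were 497 bp upstream of pqn-71 (159), 496 bp upstream of maph-1.3 (92.3) and 493 bp upstream of K12H4.5 (195).

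The members were not spread evenly over the chromosomes. Per Mb of intergenic bases there were 16.5 on chromosome I, 12.6 on III, 10.8 on IV, 8.45 on II and 5.63 on V. As a share of all peaks on the chromosome, members ranged from 20.8% on III (interval 15.8 to 26.9) to 29.6% on IV (23.9 to 36.0). These intervals overlapped. The outer 25% at either end of each chromosome held 97 members (41.5%, interval 35.3 to 47.9) and 52.7% of the intergenic bases. This share was below that of the bases on I (42.9% against 52.6%), III (31.0% against 49.2%), IV (41.3% against 56.9%) and V (41.7% against 51.6%), and equal to it on II (51.4% against 51.4%). Median signals were 80.9 in the arms and 80.2 in the centres.

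A neighbouring summit within 1000 bp was found for 36 members (15.4%, interval 11.3 to 20.6), against 17.5% of autosomal peaks. The neighbour was stronger at 20 of these members. At 13 a stronger neighbour stood within 250 bp, at 200 to 213 bp, and these 13 were among the 16 members with a signal under 50. The lowest signal, 2.46, stood 205 bp from a signal of 65.4 near car-1. No window of 10 kb held more than 3 members, and 5 windows held that many. They included the rpa-2 locus (signals of 49.99 to 327), the K08F11.1 locus (113 to 307) and a locus with tRNA genes WBGene00023108 and WBGene00023109, nearest to ckr-2 on chromosome III (64.9 to 72.9). The other 2 were at coa-5 and car-1 on chromosome I (2.46 to 65.4) and at msp-19 and F36H12.5 on chromosome IV (19.0 to 85.5).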

How the data were processed

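Chromatin immunoprecipitation sequencing was available as peak lists for 1 group of 2 biological replicates. Coordinates are those of ce11 per the labels, which is WBcel235, and no ranked peak ran beyond a reference chromosome. The sources used here name neither the aligner nor the program that called peaks. The signal of each peak (column 7) and its score were deposited by the authors, and the thresholded lists start at a score of 830. Per the text files deposited with the lists, 1 shared input was used, and the thresholded lists drew on 1 further input. The signal scale is not stated, so the authors' signal served to describe and rank peaks within a list. The lists hold no read counts, so depth is unknown, and Wilson intervals (95%) and the limits for a count of 0 (3 counts of the total) cover counting error only. In the ranked lists of the series, 16 columns had no sample label and were left out.

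Gene models were those of Ensembl release 115, and bases came from RefSeq. Summits were start plus the offset plus 1. Replicate support was an overlap of at least 1 bp, and ranked summits were matched within 100 bp. Copies were found with blastn 2.17.0+. Noncoding genes, motifs and copies were described beside the intergenic bases, windows 500 bp away or the other autosomal peaks, with no test. The functions were tested on simulated summits. The members and lists were chosen with earlier results of these data known. Genes were named for the 20 members of highest signal, up to 4 members per noncoding class, the 4 farthest from a coding gene, the fullest 10 kb windows, the 3 largest replicate ratios in each direction, and 3 peaks on either side of the promoter limit. Other genes, the sequence families and TTCNNGAA were chosen after their values were seen. Alternatives were other lists, promoter windows, distances, matching rules and single replicates. Another 3 were added after the data were seen, which left out summits beside a stronger one, left out members with another copy, and counted TTCNNGAA.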

Additional observations from a re-analysis of the deposited data

Results flagged for a closer look

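The combined ranked list held 70 peaks with a score of 830 or more that the combined thresholded list did not hold, and 61 of these were autosomal intergenic peaks by the same rule (62 were autosomal). They were flagged because they lie outside the list that the members were taken from. The members had a median signal of 80.6, against 98.8 for these 61 peaks, which ran from 14.1 to 383. The strongest, at 9047501 of chromosome IV, had Y73F4A.1 as the gene of its nearest coding 5′ end (-2149 bp). Next in signal were sites by clec-9 (324, at -1882 bp) and alh-12 (308, at -6085 bp), where negative is upstream. Within 500 bp there was a snRNA gene at 1 of the 61, an rRNA gene at 2, and no tRNA or snoRNA gene. The step that left them out was not tested.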

How the results depend on the processing

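No paired analysis was possible because there was 1 group, so no groups shared replicate numbers. Of 185 values under alternatives, 152 stayed close to the main value (within its 95% interval for a share, within the spread of the replicate lists for a median, or within 1.5 times for a count). The number of members was 120 among peaks at or above the median signal, and 101 to 135 in single replicates. The share of autosomal peaks was 29.9% with the peaks of passing score restored, 37.95% and 18.3% with promoter windows of 250 and 1000 bp upstream, and 17.6% when the whole peak had to be intergenic. Support in both replicates was 62.5% in the stronger part of the list and 26.1% with peaks restored, and support in neither was 7.50% and 49.5%. The ratio of the median signal of members to that of promoter peaks, 0.925, was 0.978 with the narrow window and 0.918 to 0.971 in single replicates. In single replicates the share near snoRNA genes was 9.63% to 14.85% and that near tRNA, snoRNA or snRNA genes 20.7% to 26.7%. The share near any of these was 15.9% to 25% under the other alternatives. The median distance to a coding 5′ end was 1416 bp in the conservative list, 1258 bp for stronger peaks, 1838 bp with peaks restored, 816 and 2111 bp with the narrow and wide windows, 1895 bp for whole peaks, 1410 bp without pseudogenes, 1443 bp after merging and 1381 to 1442 bp in single replicates. The share between convergent genes was 15.7% with the narrow window and 17.8% to 21.5% in single replicates. The share near pseudogenes was 6.41% at 200 bp and 5.05% with pseudogenes excluded from the intergenic bases, that near piRNA genes was 0.855% at 200 bp, and that with GAGAGA was 16.7% in windows of 50 bp each side. Neighbours within 2000 bp were found for 27.8% of members, and copies at 80% identity over 50% of the window for 42.7%. Leaving out summits beside a stronger one, or members with another copy, kept the shares near RNA genes at 19.9% and 20.5%. The copy rule could not count copies of a tRNA gene alone. Without a control immunoprecipitation or read counts, background and depth were not assessed.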
